A study of Mus musculus with 41 samples.

Results

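Acetylation of lysine 9 of histone H3 (H3K9ac) was mapped by chromatin immunoprecipitation and sequencing (ChIP-seq) in sorted mouse chondrocytes, which are the cells that build cartilage. The H3K9ac libraries are 5 of the 41 samples of the series, of which 30 have a list of regions. They were chosen by their label for this antibody (Abcam ab61231), and 1 shared list per cell type accompanied them. The 3 libraries of proliferating chondrocytes (PC, replicates 1, 2 and 3) came from cartilage of embryos at E13.5, where E counts days of embryonic development. These embryos carried the transgene Tg(Col2a1-cre)1Star, in which sequence of the type II collagen gene drives Cre recombinase. The 2 libraries of hypertrophic chondrocytes (HC, replicates 2 and 3) came from cartilage at E15.5 and carried Tg(Col10a1-cre)1427Vdm, driven by type X collagen sequence. Both strains held the reporter Gt(ROSA)26Sortm1(EYFP)Cos, which Cre switches on, and sorting was by flow cytometry. A Cre reporter stays on in the descendants of a cell in which Cre was once active, so the sort follows the history of a cell as well as its state. Cell type, age and strain changed together and cannot be told apart. The labels do not say whether the libraries of a group came from separate litters or from a shared pool, so every p-value speaks only of the spread among these 5 libraries, part or all of which may be technical.

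In the growth plate, chondrocytes first divide and lay down a matrix rich in type II collagen and aggrecan, under the transcription factors SOX9, SOX5 and SOX6. They then leave the cell cycle and enlarge into hypertrophic cells, which make type X collagen, with RUNX2 and RUNX3 among the factors that drive this step. H3K9ac is laid down by acetyltransferases of the GCN5/PCAF family at active promoters and at part of the active enhancers, and deacetylases of the HDAC and sirtuin families remove it.

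The 4 promoters below are shown because the comparison between cell types turns on them. Runx2 and Col9a1 are chondrocyte genes with H3K9ac around the listed start in every PC library and none there in either HC library. Uncx has the same pattern at a promoter rich in CpG pairs, and Pax7 has the opposite pattern. Each sequence runs 5′ to 3′ from 250 bases before to 50 bases after a transcription start listed by RefSeq for GRCm38.p6, the assembly also called mm10. Capitals mark the 3 matches to the RUNX motif TGTGGT or its complement, all in Runx2, and no match to this motif lay in the other 3 windows. Runx2 lies at chr17:44814578-44814877 on the minus strand and holds 2 CpG pairs, Col9a1 at chr1:24177360-24177659 on the plus strand with 0, Uncx at chr5:139543648-139543947 on the plus strand with 26, and Pax7 at chr4:139832919-139833218 on the minus strand with 17.
Runx2: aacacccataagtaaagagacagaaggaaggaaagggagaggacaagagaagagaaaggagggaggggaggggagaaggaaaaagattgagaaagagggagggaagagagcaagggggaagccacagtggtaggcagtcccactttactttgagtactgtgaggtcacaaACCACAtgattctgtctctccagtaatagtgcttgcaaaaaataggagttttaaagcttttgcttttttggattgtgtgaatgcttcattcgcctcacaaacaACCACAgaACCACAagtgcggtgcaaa
Col9a1: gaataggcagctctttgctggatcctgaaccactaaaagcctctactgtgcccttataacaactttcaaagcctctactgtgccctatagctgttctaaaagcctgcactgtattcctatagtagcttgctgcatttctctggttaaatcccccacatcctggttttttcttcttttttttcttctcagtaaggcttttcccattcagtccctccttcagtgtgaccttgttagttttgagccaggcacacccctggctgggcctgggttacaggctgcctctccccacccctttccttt
Uncx: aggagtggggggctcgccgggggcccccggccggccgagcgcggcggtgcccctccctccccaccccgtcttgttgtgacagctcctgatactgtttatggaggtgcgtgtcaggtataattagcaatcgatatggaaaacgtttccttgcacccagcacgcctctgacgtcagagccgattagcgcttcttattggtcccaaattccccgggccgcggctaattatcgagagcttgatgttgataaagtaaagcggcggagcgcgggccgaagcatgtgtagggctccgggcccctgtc
Pax7: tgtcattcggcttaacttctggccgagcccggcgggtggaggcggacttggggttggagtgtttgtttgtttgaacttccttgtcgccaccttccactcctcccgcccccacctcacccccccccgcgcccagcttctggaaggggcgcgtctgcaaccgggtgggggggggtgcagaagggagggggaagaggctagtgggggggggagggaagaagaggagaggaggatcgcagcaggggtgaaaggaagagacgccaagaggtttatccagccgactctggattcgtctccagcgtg

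The deposited lists give the start and end of each region on a grid of 200 bp, with no height or read count, so the depth behind them is unknown. On the autosomes the PC libraries held 50109, 37578 and 27889 regions (replicates 1, 2 and 3) and the HC libraries 24667 and 23333 (replicates 2 and 3). They covered 52.8, 34.5 and 31.9 Mb in PC and 34.0 and 28.9 Mb in HC. PC replicate 1 stood apart from the other 4 libraries, all of which covered between 28.9 and 34.5 Mb. Each region was placed in a promoter window, at another gene end, or in the distal class, over 2 kb from every gene end. A promoter window spans 2 kb on each side of the listed start of an autosomal protein-coding gene, or of a gene end chosen by H3K4me3 where no start was listed. Where H3K4me3 did not single out 1 end, both ends were used, as for Sox9, Snorc, Dlx5, Sp7 and Panx3 among others. Their percents run over a longer window that takes in the other gene end and are not on the same footing. Only 1 listed start per gene was used, so H3K9ac at another start of the same gene counts as distal or as another gene end.

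Promoter regions were alike in number between cell types, whereas distal regions were more numerous in every PC library. Promoter windows held 14451, 14686 and 12754 regions in PC and 12960 and 13160 in HC (13964 ± 1054, SD, n = 3, and 13060 ± 141, n = 2; two-sided exact permutation p = 0.4). Distal regions numbered 28391, 17725 and 11482 in PC and 8337 and 6978 in HC, and the groups did not overlap (19199 ± 8550 and 7658 ± 961; exact permutation p = 0.2). They made up 56.7%, 47.2% and 41.2% of the PC regions and 33.8% and 29.9% of the HC regions (exact permutation p = 0.2). The 10 ways to split 5 libraries into 3 and 2 allow no p below 0.1. Distal regions were short, with a median width of 400, 200 and 200 bp in PC and 400 bp in both HC libraries, against 1400 to 1800 bp for promoter regions. Between 38.7% and 61.5% of the distal regions of a library were a single 200 bp step, and 61.6% to 70.4% lay within a gene body.

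**Figure D1:**
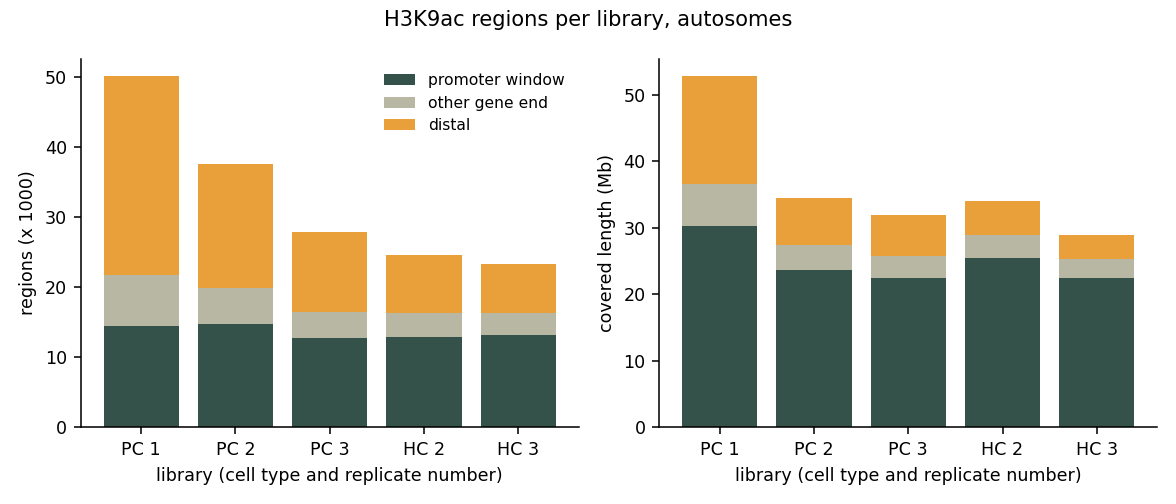
Stacked bars give the number of autosomal H3K9ac regions (left, in units of 1000) and the length they cover (right, Mb) in each library, split into promoter windows, other gene ends and distal regions. The promoter part is of similar height in all 5 bars (12754 to 14686 regions), and the distal part runs from 28391 regions in PC replicate 1 to 6978 in HC replicate 3.

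Around the 16457 listed starts, H3K9ac had the same shape in all 5 libraries. The share of starts covered was greatest in the 200 bp step centred 300 bp downstream of the start, at 57.5%, 55.7% and 53.5% in PC and 56.2% and 54.8% in HC. The means of the 2 groups at this peak were 55.6% ± 1.99 (SD, n = 3) and 55.5% ± 0.954 (n = 2; exact permutation p = 1.0). Cover was asymmetric in every library, with a mean of 21.3% to 28.1% over the 2 kb upstream and of 35.0% to 43.5% over the 2 kb downstream, where the gene body begins. Between 3 and 4 kb from the start it was down to 6.91% in PC replicate 1 and to between 3.0% and 4.26% in the other libraries.

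**Figure D2:**
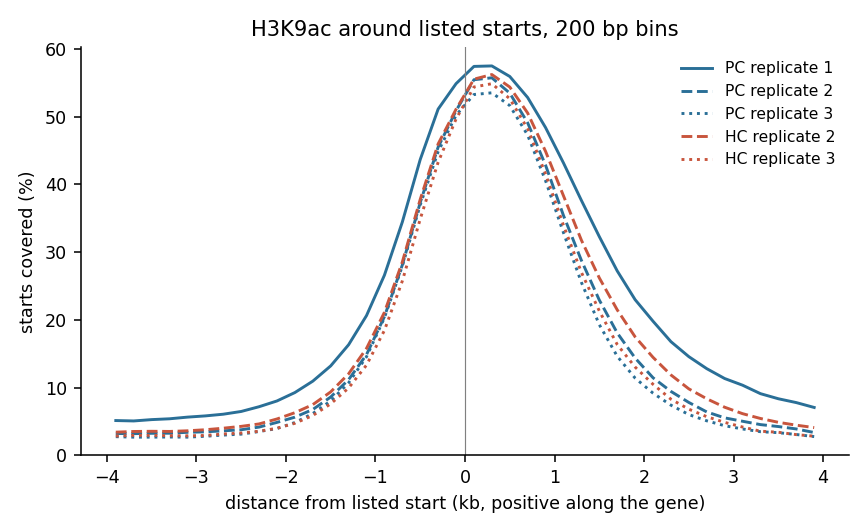
Each line is 1 library, with the distance from the listed start on the x axis (kb, positive along the gene) and the percent of 16457 starts covered by H3K9ac in each 200 bp step on the y axis. The 5 curves peak just downstream of the start between 53.5% and 57.5%, and PC replicate 1 is wider on both sides.

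The libraries shared far more of their promoter cover than of their distal cover. The Jaccard index, which is the shared length over the combined length of 2 lists, was 0.662 to 0.716 within PC, 0.734 within HC and 0.653 to 0.707 between the cell types for promoter regions. For distal regions it was 0.155 to 0.180 within PC, 0.239 within HC and 0.106 to 0.174 between them. Pairs from different cell types thus reached into the range of pairs of PC libraries in both classes, but the lowest lay below it. The pair of HC libraries lay above every pair from different cell types in both classes.

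A promoter was counted as marked when regions took up 200 bp or more of its window. Of the 20665 windows, 11309 were marked in all 5 libraries and 6809 in none. Each library marked 12059 to 13061 promoters, or 58.4% to 63.2%. Of the 13856 promoters marked in at least 1 library, 98 (0.707%) were marked in all 3 PC libraries and neither HC library (PC-only), and 60 (0.433%) in both HC libraries and no PC library (HC-only). When each library was reduced to its widest regions up to the length of the shortest list (equal covered length, 28.9 Mb), the counts were 22 PC-only and 111 HC-only, so their order turned. Leaving out PC replicate 2 or 3 gave 162 or 238 PC-only promoters, and leaving out HC replicate 2 or 3 gave 263 or 196. Leaving out PC replicate 1 or 2 gave 150 or 103 HC-only promoters, and leaving out HC replicate 2 or 3 gave 148 or 172.

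The covered percent of each window was compared with limma, a moderated linear model, with Benjamini-Hochberg adjustment over the 13040 promoters covered in at least 2 libraries. At an adjusted p of 0.05, 1 promoter rose in HC (0.00767%) and 0 fell (0.0%). At an unadjusted p under 0.05, 502 promoters were lower in HC (3.85%) and 250 higher (1.92%). The groups did not overlap at 1353 promoters lower in HC (10.4%) and at 580 higher (4.45%). The median difference over all 13040 was -1.89 percentage points. The number of calls depended on the window. With 1 kb on each side, limma called 214 promoters lower and 71 higher, among them Runx2, Snorc, Col11a2, Npas3 and Tnnt3 as lower and Pax7, Cdh15, Acta2, Tmem140 and Inpp5d as higher. At equal covered length it called 3 lower and 0 higher.

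The promoter that rose was that of Col2a1, the type II collagen gene and the defining marker of chondrocytes (chromosome 15, 97975602 to 98004724). Its window was covered by 0% in PC replicates 1, 2 and 3 and by 71.9% in both HC libraries (difference 71.9 points, SE 5.46, limma adjusted p = 0.029). It entered the test through the 2 HC libraries alone, and with a minimum of 3 covered libraries it was not tested and 0 promoters were called higher. The call was lost without PC replicate 1 (limma adjusted p = 0.0936) and without PC replicate 2 (0.102), at equal covered length (0.204), with the replicate number as a block (0.229) and on the log2 scale (0.439). Without either HC library the promoter was covered in too few libraries to be tested. The empty stretch in PC began at the same position, 98001201, in all 3 libraries and was 7.0, 8.0 and 6.6 kb long, while neither HC library had a gap at this gene end. Within the gene body the order was the other way round, with 19.6, 7.8 and 8.6 kb covered in PC and 3.92 and 2.92 kb in HC. In the same window H3K27ac, another mark of active promoters and enhancers, covered 0% in all 3 of its PC libraries and 65.0% ± 14.1 (SD, n = 2) in HC, while H3K27me3, the mark of Polycomb repression, covered 100% in the libraries of both cell types. Sequence of Col2a1 also drives Cre in the PC strain, and regions of the transgene and of the gene itself cannot be told apart in these lists.

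Col10a1, the type X collagen gene and the defining marker of hypertrophic chondrocytes (chromosome 10, 34389981 to 34397085), was also covered in HC alone. Its window was covered by 0% in all 3 PC libraries and by 5.00% and 15% in HC replicates 2 and 3 (difference 10 points, SE 5.17, limma adjusted p = 0.912). Around it, within 200 kb on each side, the HC libraries held 64 and 56 H3K9ac regions and the PC libraries 16, 9 and 10 (60 ± 5.66 and 11.7 ± 3.79; two-sided exact permutation p = 0.1, the smallest possible). Most of the HC regions there, 73.4% and 71.4%, were single 200 bp steps, against 25%, 11.1% and 50% in PC. Within the same distance of Col2a1 the order was opposite, with 54, 46 and 36 regions in PC and 24 and 18 in HC (45.3 ± 9.02 and 21.0 ± 4.24; exact permutation p = 0.1). Over all autosomes the PC libraries also held more regions (38525 ± 11140 and 24000 ± 943). The counts in these stretches were not scaled to list size, and the part of list size in the Col2a1 counts was not tested. Both stretches had been chosen after their values were seen. The first lies around the gene whose sequence drives Cre in the HC strain, and a contribution of the transgene cannot be told apart from the gene.

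The list of cartilage matrix and early chondrocyte genes carried less H3K9ac in HC at most members. Of its 29 autosomal members 26 were tested and 3 (Ucma, Epyc and Sox5) were not marked at the window used in any library. At an unadjusted limma p under 0.05, 18 of the 26 (69.2%) were lower in HC and 1, Col2a1, was higher, against 3.85% and 1.92% of all promoters. After adjustment over all promoters 0 fell and 1 rose. Of the 26, 4 PC-only members and Col2a1 were covered in 1 cell type alone. The groups did not overlap at 20 members lower in HC and at 1 higher, against 10.4% and 4.45% of all promoters. The median difference was -27.2 points, and the members had a median of 64.6% in PC and 36.3% in HC. The count of 18 was 17 at equal covered length, 12 to 17 with 1 library left out, lowest without HC replicate 3, and 11 with the window of 1 kb.

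Among the collagens, Col9a1, a chain of the type IX collagen that coats cartilage fibrils (chromosome 1, 24177589 to 24252738), was covered by 90%, 50% and 50.2% in PC and by 0% in both HC libraries. It was PC-only, with a difference of -63.4 points (SE 12.4, limma adjusted p = 0.362). Col11a1, a chain of type XI collagen (chromosome 3, 114030479 to 114220756), was at 100% in all 3 PC libraries and at 93.5% and 68.5% in HC. Col11a2, another chain of the same fibril, was at 100%, 68.4% and 98.4% in PC and at 63.4% in both HC libraries. Col9a2 overlapped between the groups, at 59.1%, 49.1% and 59.1% in PC and 54.1% and 44.1% in HC.

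The matrilins, adaptor proteins of the cartilage matrix, showed some of the largest differences on the list. Matn1 (chromosome 4, 130944385 to 130955476) was covered by 90%, 64.6% and 49.6% in PC and by 5.00% and 0% in HC (difference -65.6 points, SE 11.4, limma adjusted p = 0.287). Matn4 (chromosome 2, 164389393 to 164405160) was at 61.0% in all 3 PC libraries and at 30.0% and 0% in HC. Matn3 (chromosome 12, 8947929 to 8972028) was at 73.2%, 60% and 78.2% in PC and at 40.0% and 30.0% in HC. At none of these 3 genes did an HC value reach the lowest PC value of that gene.

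The groups overlapped at the matrix genes Comp (95%, 35.0% and 50% in PC, 25% and 50% in HC) and Chad. Chad was at 81.15%, 55.0% and 65.0% in PC and at 55.0% and 31.15% in HC. The matrix genes that follow had the same order as the matrilins. Prelp, which encodes a leucine-rich proteoglycan (chromosome 1, 133910304 to 133930102), was at 100%, 60% and 65.0% in PC and at 10% and 15% in HC. Hapln1, the link protein that holds aggrecan on hyaluronan (chromosome 13, 89540529 to 89611832), was at 100%, 100% and 95% in PC and at 85.0% and 45% in HC. Acan, the aggrecan gene (chromosome 7, 79053226 to 79115099), was at 75.6% in all 3 PC libraries and at 60% and 55.0% in HC (difference -18.1 points, SE 5.96, limma adjusted p = 0.679). Chadl, Cytl1 and Snorc, which encode small secreted or membrane proteins of cartilage, were PC-only, at 25% to 45%, 30.0% to 55.0% and 22.5% to 36.5% in PC. Cnmd, the gene of the angiogenesis inhibitor chondromodulin, was at 40.5% to 50.5% in PC and at 25% and 5.00% in HC. The other members lower at an unadjusted p under 0.05 were Susd5 and Papss2, the latter an enzyme that makes the sulphate donor for proteoglycans.

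The transcription factors of the early chondrocyte stayed marked in HC, at lower cover. Sox9, the master regulator of chondrocytes (chromosome 11, 112782210 to 112787757), was at 75.5%, 68.0% and 60.5% in PC and at 43.2% and 37.6% in HC (difference -27.7 points, SE 7.08, limma adjusted p = 0.473). Sox6, its partner (chromosome 7, 115470872 to 116040776), was at 100%, 100% and 96.4% in PC and at 65.0% and 75.0% in HC. Nkx3-2, a repressor that holds back Runx2 in early chondrocytes (chromosome 5, 41761483 to 41764220), was at 100%, 94.5% and 74.5% in PC and at 20% and 40.0% in HC. In none of these 3 genes did the groups overlap. Receptor and hormone genes of the list did overlap between groups. Fgfr3, the receptor that restrains chondrocyte division, was at 73.1%, 53.1% and 68.1% in PC and at 58.1% and 63.1% in HC. Pthlh, the hormone that delays hypertrophy, was at 45%, 35.0% and 45% in PC and at 25% and 40.0% in HC.

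**Figure D3:**
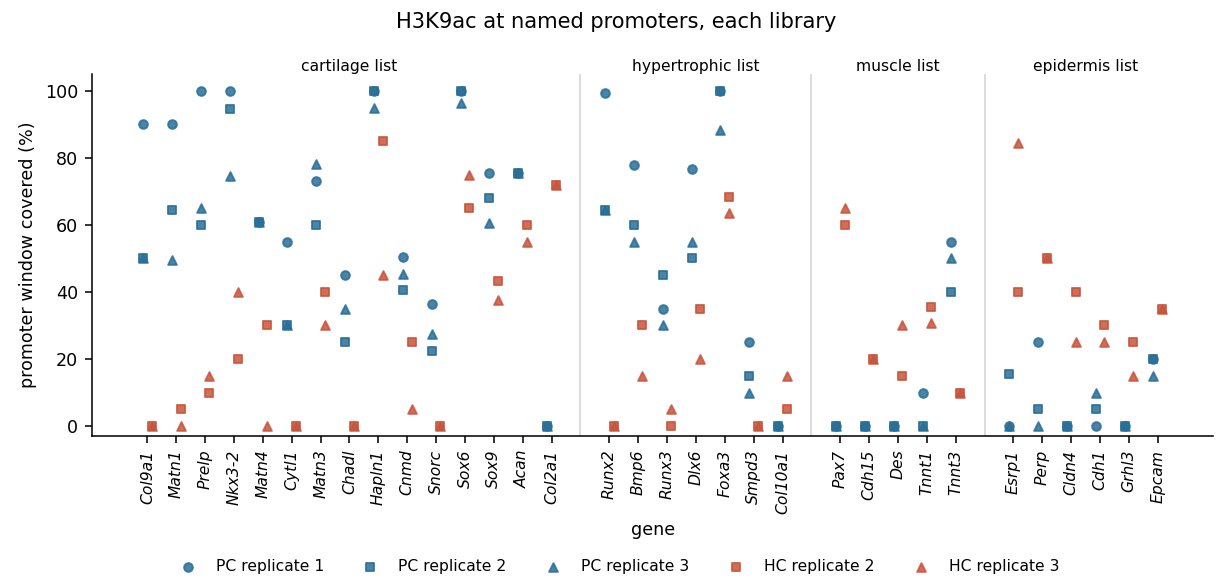
Each point is 1 library, with the percent of the promoter window covered by H3K9ac on the y axis and genes of 4 lists on the x axis, blue for PC and red for HC. The genes were picked from members with an unadjusted limma p under 0.05 or present in 1 cell type only, so their separation follows from the choice. Members that overlapped between groups, such as Col9a2, Fgfr3, Vegfa and Krt8, are not drawn. In the cartilage and hypertrophic lists the PC points lie above the HC points at all genes drawn but Col2a1 and Col10a1, and in the muscle and epidermis lists the HC points lie above at all but Tnnt3.

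The list of hypertrophic chondrocyte genes was not higher in the libraries labelled HC. Of its 27 members 21 were tested, of which 8 (38.1%) were lower in HC and 0 higher at an unadjusted limma p under 0.05, against 3.85% and 1.92% of all promoters, and 0 passed the adjustment in either direction. The median difference was -13.3 points, from a median of 52.9% in PC to 27.5% in HC. The count of 8 was 5 at equal covered length and 4 without HC replicate 3. Ihh, the Hedgehog ligand of prehypertrophic cells, Mmp13, a collagenase of late hypertrophy, Mef2c, Ibsp and Spp1 were marked in no library at the window used. Col10a1 was HC-only and the 1 member higher in HC without overlap (4.76%), against 4.45% of all promoters. Lower without overlap were 10 members (47.6%), against 10.4% of all promoters. Of the 21 members, 3 PC-only and 1 HC-only were covered in 1 cell type alone. H3K9ac at the list as a whole thus did not follow the label, and HC is used here only as the name of the libraries.

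Runx2 (chromosome 17, 44495987 to 44814797), whose promoter is printed above, had the greatest difference in mean among PC-only promoters. Its window was covered by 99.4%, 64.4% and 64.4% in PC and by 0% in both HC libraries (difference -76.0 points, SE 11.3, limma adjusted p = 0.267). H3K27ac at the same window went the same way, at 68.1% ± 7.99 (SD, n = 3) in PC and 0% in both HC libraries, while H3K4me3, the mark of promoters, was at 74.4% ± 13.2 and 39.7% ± 27.8. Runx3, its paralog (chromosome 4, 135120645 to 135177990), was at 35.0%, 45% and 30.0% in PC and at 0% and 5.00% in HC. Bmp6, a growth factor of hypertrophic cells (chromosome 13, 38345716 to 38500314), was at 77.9%, 60% and 55.0% in PC and at 30.0% and 15% in HC. Dlx5, Dlx6 and Foxa3, transcription factors that promote hypertrophy, were also lower with no overlap, and Foxa3 was at 100%, 100% and 88.5% in PC and at 68.5% and 63.5% in HC. Also among the 8 was Zfp521, a zinc finger protein that represses RUNX2 activity, at 100%, 81.3% and 86.3% in PC and 76.3% and 66.3% in HC. Smpd3, a sphingomyelinase needed for mineralisation, and Panx3, a channel protein, were PC-only at low cover of 10% to 25% and 2.50% to 27.5%. The groups did not overlap at Sp7, the factor osterix, with 54.6%, 49.6% and 54.6% in PC and 45% and 40.0% in HC, but its unadjusted p was not under 0.05. Members that overlapped between groups included Vegfa, Mef2d, Hdac4 and Ptch1, the last at 91.7% or above in every library. The gene of the hormone receptor Pth1r was covered in PC replicate 1 alone, at 45%.

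Of the genes of the Hedgehog, PTHrP and BMP pathways, which time the steps of the growth plate, 3 BMP ligands were among the members lower in HC. At an unadjusted limma p under 0.05, 6 of 27 members tested (22.2%) were lower and 0 higher, against 3.85% and 1.92% of all promoters, with a median difference of -9.17 points against -1.89, and 0 passed the adjustment. The ligands Bmp2 (74.0%, 59.0% and 84.0% in PC, 49.0% in both HC libraries), Bmp6 and Bmp7 (60%, 62.0% and 60% against 40.0% in both) were among them. Bmp6 is also counted in the hypertrophic list and Bmp2 in the osteoblast list. The ligand Bmp4 overlapped between groups with a higher mean in HC, at 43.3%, 23.3% and 43.3% in PC and 48.3% and 43.3% in HC. Lower at an unadjusted p under 0.05 were also members that are not ligands. Among them was Hhip, an inhibitor that binds Hedgehog ligands, at 59.8%, 60% and 59.8% in PC and at 40.0% and 20% in HC. Of the receptors, Bmpr1b was PC-only at 20%, 15% and 10%, while Bmpr1a and Bmpr2 were at 81.4% or above in every library. The signal transducer Smad9 was at 74.5%, 69.5% and 59.5% in PC and at 50% and 10% in HC, whereas the groups overlapped at Smad1 and Smad5. The targets Id1, Id2 and Id3 kept at least 81.4% in each library.

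Genes of the machinery that writes or removes H3K9ac, of the cell cycle and of general upkeep were marked in nearly every library. Of 20 tested genes for acetyltransferases, deacetylases and their partners, all 20 were marked in all 5 libraries and 2 (10%) were lower in HC at an unadjusted limma p under 0.05, against 3.85% of all promoters. The median difference was -7.38 points, and 5 (25%) were lower and 2 (10%) higher without overlap, against 10.4% and 4.45% of all promoters. The 2 were Kat6b, at 94.2%, 84.2% and 84.2% in PC and 75.0% and 60% in HC, and Kat7, at 75.0% in all 3 PC libraries and 60% in both HC libraries. Kat2a and Kat2b, the GCN5 and PCAF acetyltransferases, overlapped between the groups, at 31.7% to 76.7% and 60% to 74.3% in PC and 35.0% to 50% and 55.0% to 60% in HC. All 24 cell cycle genes were marked in all 5 libraries, and 1 of 24, Bub1, was lower at an unadjusted limma p under 0.05, with a median difference over the list of -1.56 points and 6 (25%) lower without overlap. Mki67, a marker of dividing cells, was at 90.6%, 75.0% and 75.6% in PC and at 70.6% in both HC libraries. Of 7 cyclin-dependent kinase inhibitors 0 differed at an unadjusted p under 0.05, of 18 genes of hypoxia and glycolysis 1 was lower (Bnip3), and of 13 housekeeping genes 0 differed, with median differences of -1.87, 0.42 and -0.83 points.

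The Hox genes, which encode position along the body axis, were lower in HC at part of the clusters. This list was added after its values had been seen. At an unadjusted limma p under 0.05, 13 of 36 (36.1%) were lower and 0 higher, against 3.85% and 1.92% of all promoters, with a median difference of -14.5 points, and 0 passed the adjustment. The Hoxb cluster on chromosome 11 had 6 of 8 lower (median difference -30.7 points), Hoxc 4 of 9 (-18.4), Hoxa 2 of 11 (-5.18) and Hoxd 1 of 8 (-8.75). Hoxb5 (96303512 to 96306121) was at 93.9% in all 3 PC libraries and at 39.3% and 21.2% in HC (limma adjusted p = 0.113). Its neighbour Hoxb6 (96292814 to 96301569) was at 95%, 92.7% and 97.5% in PC and at 40.2% and 30.6% in HC (limma adjusted p = 0.109). Windows of neighbouring Hox genes overlap, so these members share regions. The count of 13 was 8 without PC replicate 2 and 7 without HC replicate 3. The labels do not say which cartilage was taken at either age.

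Markers of other tissues differed in both directions. Of 16 muscle genes, 7 were tested, 4 were higher (57.1%) and 1 lower (14.3%) in HC at an unadjusted limma p under 0.05, against 1.92% and 3.85% of all promoters, and 0 passed the adjustment. Pax7, a transcription factor of muscle precursors (chromosome 4, 139737059 to 139833530), was at 0% in all 3 PC libraries and at 60% and 65.0% in HC (difference 62.5 points, SE 5.66, limma adjusted p = 0.0505). Pax7, Cdh15 and Des were covered in HC alone and entered the test through these 2 libraries. The muscle cadherin Cdh15 and the filament protein Des were HC-only, at 20% in both HC libraries and at 15% and 30.0%. Tnnt1, a slow muscle troponin, was at 10%, 0% and 0% in PC and at 35.7% and 30.7% in HC, whereas the fast troponin Tnnt3 was at 55.0%, 40.0% and 50% in PC and at 10% in both HC libraries. The mean cover of the 16 windows was 5.41%, 2.50% and 4.68% in PC and 10.3% and 11.9% in HC. Of the 16 genes, 7 were at 0% in all 5 libraries, namely Myod1, Myf5, Acta1, Actc1, Chrna1, Myh3 and Ckm. Myog was at 20% in HC replicate 3 and Myf6 at 6.81% in PC replicate 1, and each was at 0% in the other libraries. With HC replicate 2 or 3 left out 1 muscle gene was higher, and at equal covered length 2 were.

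Of 20 epidermis genes 14 were tested, 6 were higher in HC (42.9%) and 0 lower at an unadjusted limma p under 0.05, against 1.92% and 3.85% of all promoters, and 0 passed the adjustment. Without HC replicate 3 the count was 3. Esrp1, a splicing regulator of epithelia (chromosome 4, 11331933 to 11386783), was at 0%, 15.4% and 0% in PC and at 40.0% and 84.6% in HC. Perp, a protein of cell junctions, was at 25%, 5.00% and 0% in PC and at 50% in both HC libraries, and Cldn4, a tight junction claudin, was HC-only at 40.0% and 25%. The others were the epithelial cadherin Cdh1, the adhesion molecule Epcam and the transcription factor Grhl3, which was HC-only at 25% and 15%. Cldn4 and Grhl3 were covered in HC alone and entered the test through the 2 HC libraries. Tested members with a lower mean in HC were Krt8, Krt18 and Ovol1, and the groups overlapped at each. Krt8 was at 20%, 35.0% and 0% in PC and at 0% in both HC libraries. Dsp, Grhl2, Sfn, Cldn7 and Itgb4 had a higher mean in HC, also with overlap. Mean cover of the 20 windows was 9.76%, 10.3% and 5.32% in PC and 20.1% and 20.5% in HC, while Krt5, Krt14, Krt15, Trp63 and Lamb3 were at 0% in all 5 libraries. Of 7 endothelial genes tested, 1 (14.3%), Erg, was lower at an unadjusted limma p under 0.05, against 3.85% of all promoters, and 0 were higher. Pecam1 and Esam were HC-only at 15% or less, a pattern of 0.433% of the promoters marked in at least 1 library. Of 5 blood genes tested, 1 (20%), Tal1, was higher at an unadjusted limma p under 0.05, against 1.92% of all promoters, and 0 were lower. Tal1 was at 0%, 0% and 25% in PC and 50% and 40.0% in HC. Of 6 neural genes tested 3 (50%) were lower at an unadjusted limma p under 0.05, namely Npas3, Sox10 and Map2, of 15 genes of perichondrium, tendon and joint 3 (20%), Prrx2, Twist2 and Fmod, and of 9 osteoblast genes 1 (11.1%), Bmp2, against 3.85% of all promoters. In these 3 lists 0 were higher, and in all the lists of other tissues 0 passed the adjustment. The part of other cell types in the differences at chondrocyte genes was not tested. In bulk samples, fewer marked cells and less of the mark per cell cannot be told apart.

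Over all promoters, the greatest differences among PC-only promoters were at Runx2, Syt8, Uncx, Col9a1, Npas3, Itga10, Lmcd1, Mest, Arhgef19 and Cytl1. Uncx, which encodes a homeobox factor needed for vertebral arches and ribs (chromosome 5, 139543865 to 139548179), was at 80.0%, 67.4% and 57.4% in PC and at 0% in both HC libraries (difference -68.3 points, SE 7.84, limma adjusted p = 0.113). Itga10, the integrin subunit through which chondrocytes bind type II collagen (chromosome 3, 96645584 to 96664519), was at 59.6%, 59.6% and 40.0% in PC. Syt8, a synaptotagmin, and Mest, an imprinted gene, differed in H3K9ac while H3K27ac stayed high, at 100% ± 0 and 96.7% ± 2.89 in PC and 86.9% ± 18.5 and 76.3% ± 33.5 in HC. Among HC-only promoters the greatest differences were at Col2a1, Pax7, Vgll2, Fitm1, Gbp2, Inpp5d, Cldn4, Tmem140, Tfap2a and Acta2. Vgll2, a cofactor of muscle transcription (chromosome 10, 52022502 to 52028471), was at 55.0% and 35.0% in HC, and Acta2, smooth muscle actin, at 30.0% and 20%. Tfap2a, a transcription factor of ectoderm and neural crest, was at 27% in both HC libraries, and all 3 genes were at 0% in PC.

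Distal H3K9ac was mostly found in a single library. Merging the distal regions of the 5 libraries gave 49515 regions, of which 41138 were in 1 library, 4658 in 2, 1710 in 3, 868 in 4 and 1141 in all 5. PC replicate 1 alone held 19392 of the regions found once, or 72.5% of the 26752 merged regions it was part of, and in HC replicates 2 and 3 this share was 47.3% and 46.4%. Median width was 200, 800, 1200, 1400 and 2000 bp for regions in 1 to 5 libraries. The share that overlapped H3K27ac in at least 1 library, a mark mapped in other libraries, was 40.2%, 75.8%, 92.5%, 96.5% and 100% in the same order. For H3K4me3 it was 8.96%, 36.9%, 69.5%, 85.5% and 97.9%, and for H3K27me3 6.69%, 9.64%, 14.2%, 22.0% and 24.1%. Wider regions overlap more of any list, so these shares are a description and width and library number cannot be told apart here.

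**Figure D4:**
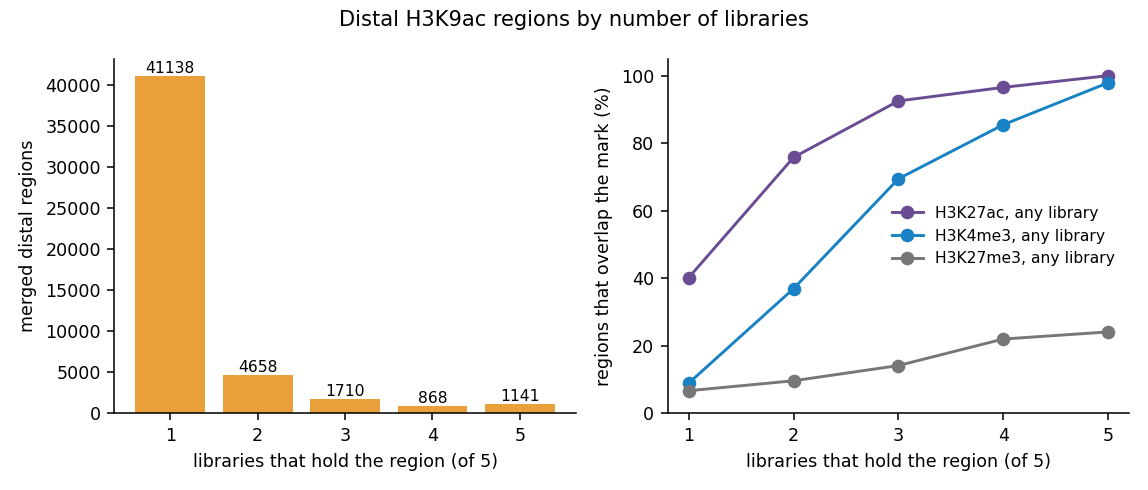
Left, bars give the number of merged distal H3K9ac regions found in 1 to 5 libraries, from 41138 in 1 to 1141 in all 5. Right, lines give the percent of these regions that overlap each of 3 other marks in at least 1 library, which runs from 40.2% to 100% for H3K27ac and from 6.69% to 24.1% for H3K27me3.

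Of the 8377 distal regions in at least 2 libraries, 682 (8.14%) were PC-only and 175 (2.09%) HC-only, where the other cell type had 0 bp. Of all 49515 merged regions these were 1.38% and 0.353%. Limma called 0 lower and 0 higher (0.0% each), with 211 lower (2.52%) and 98 higher (1.17%) at an unadjusted p under 0.05. With 1 library left out it called up to 560 lower, without PC replicate 3, and up to 113 higher, without PC replicate 1. At equal covered length 123 regions were PC-only and 139 HC-only, so their order turned, and 26 were lower and 44 higher at an unadjusted p under 0.05. With the full lists, leaving out PC replicate 2 or 3 gave 1717 or 2308 PC-only regions. The HC-only count was 365 without PC replicate 1 and 2801 or 3566 when HC replicate 2 or 3 was left out. Of the 175 HC-only regions 14 (8%) lay within 200 kb of Col10a1, and 161 remained without the stretches around it and Col2a1.

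The 5 PC-only distal regions with the greatest difference lay in Col9a3, in Wwp2 at 3 places, and between genes. A region of 12400 bp in Col9a3, a type IX collagen chain (chromosome 2, 180601401 to 180613800), was covered over 12000, 6000 and 8600 bp in PC and 0 bp in both HC libraries (limma adjusted p = 0.553). The next was in Wwp2, a ubiquitin ligase gene that hosts the cartilage microRNA miR-140 (chromosome 8, 107488001 to 107497200), with 8400, 5400 and 6800 bp in PC. Another in Wwp2 (107467401 to 107475400) had 7800, 3400 and 6800 bp, and the last (107518001 to 107524000) 5600, 1800 and 5800 bp. Wwp2 was nearest to 6 PC-only regions in all. H3K27ac covered 99.3% and 99.2% of the first and second Wwp2 region in the mean PC library and 42.4% and 46.3% in the mean HC library. The region between genes (chromosome 5, 118316001 to 118322800) lay 52886 bp from Spring1, the nearest gene, and was covered over 4800, 2000 and 6800 bp in PC. Sox5, whose listed start was unmarked, was nearest to 7 PC-only regions, more than any other gene. Its 12 distal regions covered 15.4, 6.6 and 9.6 kb in PC and 0 kb in both HC libraries. Ptch1, the Hedgehog receptor, and Trpv4, a calcium channel of chondrocytes, each had 4. So did Ccn1, Ctdspl, Farp1, Lonrf2, Nfatc1 and Spsb1. At Ptch1 the 7 distal regions covered 10.6, 5.0 and 4.2 kb in PC and 0.4 and 0 kb in HC, while its promoter was at 91.7% or above in every library.

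Taken by list, distal regions nearest to cartilage genes numbered 56, of which 17 (30.4%) were PC-only and 0 HC-only, against 7.82% and 2.16% of the 7873 regions given to any gene within 100 kb. Sox5 alone gave 12 of the 56 and 7 of the 17. The 56 regions covered 100.8, 31.6 and 53.6 kb in PC and 6.8 and 3.2 kb in HC, whereas all regions given to a gene covered 7554.6, 3595 and 3682.2 kb in PC and 3235 and 2286.6 kb in HC. For the hypertrophic list 8 of 47 (17.0%) were PC-only and 1 HC-only. Runx2 had 5 distal regions that covered 12.2, 6.8 and 8.0 kb in PC and 5.4 and 3.2 kb in HC. Its distal cover was thus not empty in HC, as the window at its listed start was. H3K9ac at another start of Runx2 could be counted as distal here, and this was not tested. A region of Pax7 was HC-only at 1.0 kb in both libraries. The HC-only regions with the greatest difference lay in Wdr81, Ndst2, Arap1 and Lpxn and near Nfkbia, at 2800 and 2400 bp in Wdr81, where H3K27ac was 0% in both cell types. The widest regions common to all 5 libraries lay in Nfix, Zfhx3, Aopep and Plec.

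The 2 shared lists made by the authors, 1 per cell type, held 14827 PC and 14955 HC regions on the autosomes. They were close to the base pairs common to all libraries of a cell type, with a Jaccard index of 0.969 for PC and 0.979 for HC. Of PC promoter regions 96.1% overlapped the HC list by at least 1 bp, and of HC promoter regions 92.8% overlapped the PC list. Of distal regions these shares were 48.1% of 2503 in PC and 51.6% of 2281 in HC. Over all classes they were 85.5% (95% Wilson interval 84.9% to 86.1%, counting error only) and 84.3% (83.7% to 84.9%). The PC list rests on 3 libraries and the HC list on 2. When 2 PC libraries were intersected instead, the PC share was 65.5% to 78.5%.

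The other marks had been mapped in other libraries of the same cell types. Those of H3K27ac and H3K27me3 had no part in choosing the sets. The H3K4me3 libraries placed the windows of genes with no listed start, so they had a part in the promoter sets. A start was listed for 74 of the 98 PC-only and 47 of the 60 HC-only promoters. At the 98 PC-only promoters H3K27ac covered 38.2%, 30.6% and 30.0% of the windows in PC libraries and 12.3% and 18.3% in HC libraries (32.9% ± 4.60, SD, n = 3, and 15.3% ± 4.26, n = 2; two-sided exact permutation p = 0.1, adjusted p = 0.36 over 18 tests). At the 60 HC-only promoters it covered 12.7%, 6.49% and 8.37% in PC and 20.7% and 23.2% in HC (exact permutation p = 0.1, adjusted p = 0.36). In both sets the groups did not overlap and H3K27ac took the direction of H3K9ac. At the 682 PC-only distal regions H3K27ac covered 86.8%, 78.9% and 78.1% in PC and 27.4% and 63.6% in HC, again without overlap (exact permutation p = 0.1, adjusted p = 0.36). At the 175 HC-only distal regions the groups overlapped, at 32.2%, 13.8% and 17.7% in PC and 28.6% and 54.0% in HC (exact permutation p = 0.3). The H3K27ac lists themselves differed in length, from 44.8 Mb in the HC library that gave 27.4% to 96.5 Mb in the PC library that gave 86.8%.

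H3K4me3 differed less at these sets. At PC-only promoters it covered 31.8% ± 7.83 in PC and 23.8% ± 4.79 in HC (exact permutation p = 0.3), and at HC-only promoters 20.1% ± 6.24 and 27.9% ± 6.84 (exact permutation p = 0.4). H3K27me3 covered much of both kinds of promoter, 40.7% ± 2.57 and 46.8% ± 0.952 at PC-only promoters and 55.7% ± 2.10 and 55.7% ± 1.38 at HC-only promoters, against 11.2% ± 0.729 and 12.4% ± 0.913 at promoters marked in all 5 libraries. In each of the 5 H3K27me3 libraries the value at both sets was above that at promoters marked throughout. At single genes the pattern varied, with H3K27me3 at 0% in PC and 93% ± 7.07 in HC for Sox9, at 0% in both for Runx2, Col9a1 and Matn1, and at 100% in both for Uncx and Pax7.

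**Figure D5:**
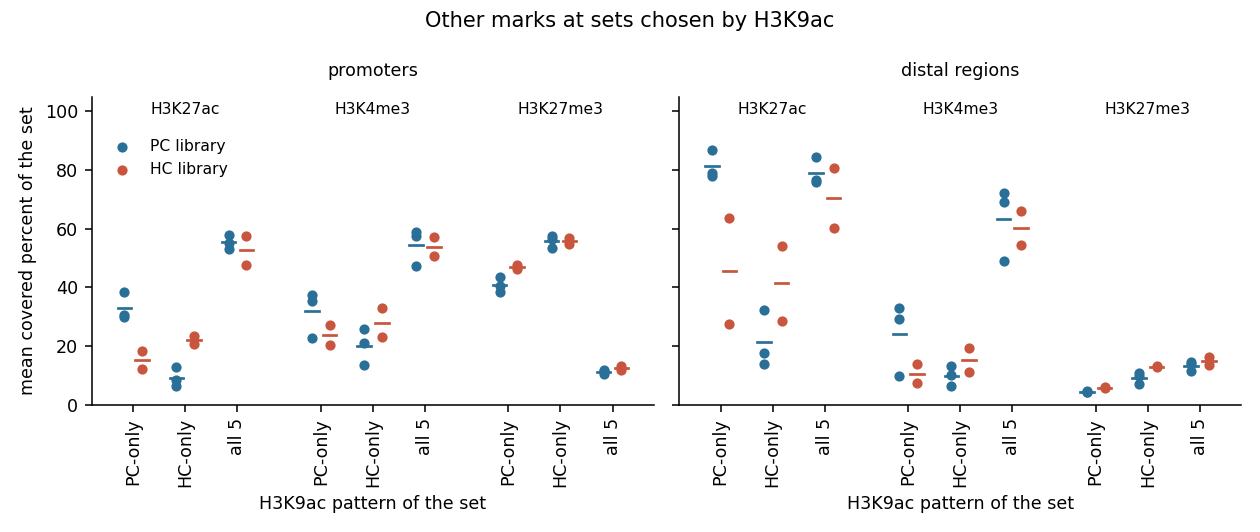
Points are libraries of 3 other marks and short lines their group means, with the mean percent of each set that the mark covers on the y axis and sets chosen by H3K9ac on the x axis (promoters left, distal regions right). H3K27ac is higher in PC at PC-only sets and higher in mean in HC at HC-only sets, and H3K27me3 at promoters is 40.7% to 55.7% in mean at the PC-only and HC-only sets and 11.2% to 12.4% where all 5 libraries are marked.

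Promoters marked in some libraries only, whatever their pattern, had base composition between those marked throughout and those never marked. Sequence was listed for 74 of the 98 PC-only and 47 of the 60 HC-only promoters. The median number of CpG pairs in the 300 bases was 8 at PC-only, 10 at HC-only, 9 at the 1742 with another mixed pattern, 22 at promoters marked in all 5 libraries and 2 at those marked in none, with a median GC content of 57.7%, 59.3%, 56.7%, 62.0% and 46.3%. The RUNX motif TGTGGT, on either strand, was found in 12.2% of PC-only and 21.3% of HC-only promoters, in 14.98% of those with another mixed pattern and in 14.9% of all 16457. The SOX motifs ACAATG and ACAAAG were in 23.0%, 25.5%, 22.8% and 25.1%, and the E-box CAGCTG, bound by muscle factors among others, in 28.4%, 21.3%, 22.0% and 15.2%. A match is a run of letters in these windows and was given no test.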

How the data were processed

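Per the labels' protocols, sorted cells went through a low-input immunoprecipitation kit (True MicroChip) and the MicroPlex library kit, both from Diagenode. The authors deposited, for each library, a list of region coordinates with no score or count, a value of no standard unit, and 1 shared list per mark and cell type. The build mm10 and the tools FastQC and Picard are named in the submitters' processing notes. The aligner, the region caller and the role of IgG controls were not given in the sources used here, and IgG libraries were not analysed here. Depth is unknown, so precision cannot be given per region.

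Lists were read with Python 3.11.15, numpy 2.4.6, pandas 2.3.3 and scipy 1.17.1. Genes were the 20665 autosomal protein-coding ones that RefSeq lists for GRCm38.p6. For 16457 of them the promoter window lay 2 kb on each side of the start in the RefSeq promoter table, for 2289 around the gene end with H3K4me3, and for the others around both ends, with H3K4me3 at both in 643 and at neither in 1276. Covered percent per window, or per merged distal region, was tested with limma 3.58.1 in R 4.3.3 (trend and robust, covered in at least 2 libraries, Benjamini-Hochberg at 0.05). Values per library were compared by two-sided exact permutation over 10 splits. A distal region went to the nearest gene within 100 kb. The interval, permutation and limma steps were tested on simulated data.

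The members, gene lists and tests were chosen with earlier results of these data known, and the Hox list, the stretches of 200 kb and the leave-one-out counts of lists were added after values were seen. Named genes were 7 fixed markers, limma calls, members of the cartilage, hypertrophic, epidermis, muscle and enzyme lists with an unadjusted p under 0.05 or present in 1 cell type only, the 10 PC-only and 10 HC-only promoters and the 5 distal regions of each kind with the greatest difference. Genes named outside this rule were chosen after their values were seen.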

Additional observations from a re-analysis of the deposited data

Results flagged for a closer look

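Chromosome Y was outside the comparisons, which used autosomes. PC replicate 2 held 130 H3K9ac regions there and PC replicate 3 held 896, whereas PC replicate 1 held 1 and HC replicates 2 and 3 held 5 and 7. These 2 libraries were noted because the regions lay in data that no comparison used and lay above the level in the other libraries. The sex of the embryos behind each library is not given in the labels, and the cause was not tested.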

How the results depend on the processing

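The covered length of promoter regions, -1.53 Mb in HC, was -3.07 to 0.856 Mb with 1 library left out, above 0 without PC replicate 1 (0.856) and without HC replicate 3 (0.00427). H3K27me3 at HC-only promoters, a difference of -0.0089 points, was -1.18 to 0.968 with 1 of its libraries left out, above 0 without PC replicate 2 (0.842), PC replicate 6 (0.315) and HC replicate 2 (0.968). Leaving out 1 library gave 0 to 2 promoters lower and 0 to 1 higher, 0 to 560 distal regions lower and 0 to 113 higher by limma, 125 to 263 PC-only and 74 to 172 HC-only promoters, and 830 to 2308 PC-only and 200 to 3566 HC-only distal regions. A pattern over 4 libraries is easier to meet by construction, and the cause of the other shifts was not tested. Of list members it gave 7 to 17 Hox genes lower and 0 to 1 higher, 4 to 8 hypertrophic genes lower, 0 to 1 cartilage gene higher, 1 to 4 muscle genes higher, and 3 to 7 epidermis genes higher and 0 to 1 lower. At equal covered length limma called 3 promoters lower and 0 higher, 22 promoters were PC-only and 111 HC-only, 123 distal regions were PC-only and 139 HC-only, and 5 hypertrophic genes were lower and 2 muscle genes higher. With a window of 1 kb, 214 promoters were lower, 71 higher and 11 cartilage genes lower. The Col2a1 call was lost, leaving 0 higher, on the log2 scale and among promoters covered in at least 3 libraries. Over 5 kb from gene ends 109 distal regions were HC-only. With an overlap of at least 50% the shared lists overlapped by 83.0% of PC and 80.1% of HC regions. With PC replicates 1 and 2, 1 and 3, or 2 and 3 intersected, the PC share was 65.5%, 71.1% and 78.5%, and the HC share 89.97% and 86.2% for the first and second pair. With the replicate number as a block limma called 0 promoters lower and 0 higher, with 681 and 893 at an unadjusted p under 0.05. Numbers 2 and 3 occur in both groups, but the deviations of same-numbered libraries from their group means had r = -0.023 and 0.059 across promoters, and no label says that the numbers pair. Unknown depth limits every value: a window with no region may hold signal below the caller's threshold.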

Other observations

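On chromosome X the PC libraries held 1556, 1312 and 1548 H3K9ac regions (replicates 1, 2 and 3) and the HC libraries 886 and 856 (1472 ± 139, SD, n = 3, and 871 ± 21.2, n = 2). The groups did not overlap (two-sided exact permutation p = 0.1, the smallest possible). Over all chromosomes the PC libraries held 51666, 39020 and 30333 regions and the HC libraries 25558 and 24196, also without overlap. The X counts were not scaled to these totals, so they show no difference particular to chromosome X.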
